A study of Mus musculus with 18 samples.

Results

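Collagen genes were taken as every row of the gene count table whose symbol has the form Col, a type number, a and a chain number, which gave 44 of 21831 rows. They comprised 11 fibrillar collagens, 8 basement membrane collagens and 25 others. The libraries came from cultured peritoneal macrophages of C57BL/6 mice aged 6 weeks, elicited with 1 mL of 3% thioglycollate, an irritant, given 3 days before collection. After 4 h of attachment the cultures received 20 µM PCN (pregnenolone 16alpha-carbonitrile, which activates the nuclear receptor PXR of mice) or the solvent DMSO for 12 h. The FF genotype carried floxed PXR alleles and gave 3 libraries per agent, FF_DMSO and FF_PCN. The dMye genotype (deltaMye) lacked PXR in myeloid cells and gave 6 libraries per agent, dMye_DMSO and dMye_PCN. The Cre driver of that deletion is not given in the sources used here, nor do they say which libraries stem from different animals, so every p-value here weighs a difference only against library-to-library spread, part of which may be technical.

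Collagens are secreted proteins whose chains wind into triple helices. Fibrillar collagens (types I, III, V and relatives) build the load-bearing fibres of connective tissue, type IV forms the sheet-like network of basement membranes with types XV and XVIII attached to it, and the remaining types form beaded filaments, hexagonal networks, fibril-surface coats or membrane-spanning proteins. Fibroblasts, mesothelial cells and other stromal cells are the main producers in most tissues. Macrophages are better known for taking up and degrading collagen, although expression of several chains, type VI among them, is described in them.

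Each library held between 21993687 and 30228032 counts, so that 1 CPM (a count scaled to the library total) stood for 22 to 30.2 counts. Every pair of replicates differed by more than sampling noise (chi-square per gene 3.77 to 45.0). Nr1i2, the gene of PXR, had 3 counts in all FF libraries together and 5 in all dMye libraries, and could not check the genotype labels. The macrophage markers Cd68 (2186 to 2597 CPM), Adgre1 (101 to 139) and Csf1r (96.8 to 142) were high in all 18 libraries. The Y-linked gene Ddx3y was at 43.7 to 62.7 CPM in the FF libraries and at 0.00 to 0.489 in the dMye libraries, so sex followed genotype, and the effects of sex and of genotype cannot be told apart in any comparison of dMye with FF.

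Of the 44 rows, 29 had enough counts to be tested: 9 fibrillar, all 8 basement membrane and 12 others. The remaining 15 were close to absent, with at most 16 counts in any library and at most 82 over all 18. Col13a1, Col25a1 and Col28a1 had 0 counts throughout, which allows up to 3 counts per library, or 0.0992 to 0.136 CPM. The others in this set were Col2a1 and Col11a1, the main fibrillar chains of cartilage, Col9a1 and Col9a2, Col10a1 of hypertrophic cartilage, Col7a1 of anchoring fibrils, Col6a4, Col6a6, Col8a1, Col17a1, Col19a1 and Col26a1. Col26a1 had 1 count in FF and 64 in dMye libraries, at most 15 of them in a single library.

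As the genes lie on 12 chromosomes and many of them moved together, the 100 bases before the transcription start are shown for 4 chains that were higher in dMye and for 1 that was not. These windows are from RefSeq on GRCm38.p6, carry no annotated exon, are written 5′ to 3′ on the gene's strand, and have the GC box, GGGCGG on either strand, in capitals. The lines give Col3a1 (chr1:45311438-45311537, plus strand), the most abundant collagen, Col24a1 (chr3:145292372-145292471, plus), with the largest fold under DMSO, Col5a1 (chr2:27886325-27886424, plus), Col4a6 (chrX:141474077-141474176, minus) and Col15a1 (chr4:47207912-47208011, plus), which did not differ.
Col3a1: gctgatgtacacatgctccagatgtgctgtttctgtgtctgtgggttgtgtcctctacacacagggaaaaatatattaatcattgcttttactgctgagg
Col24a1: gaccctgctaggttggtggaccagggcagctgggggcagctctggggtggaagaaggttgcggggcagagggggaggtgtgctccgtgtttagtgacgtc
Col5a1: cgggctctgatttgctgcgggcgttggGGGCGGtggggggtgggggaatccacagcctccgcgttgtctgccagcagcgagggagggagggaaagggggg
Col4a6: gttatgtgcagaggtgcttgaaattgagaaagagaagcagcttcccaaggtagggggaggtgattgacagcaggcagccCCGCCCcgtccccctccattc
Col15a1: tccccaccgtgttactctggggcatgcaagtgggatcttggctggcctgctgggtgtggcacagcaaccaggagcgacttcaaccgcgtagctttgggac

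The promoter table held 22 of the 29 tested collagens, with 24 windows. GGGCGG, searched on both strands, lay in 12 of the 24 windows, against 24.7% of all 32851 windows of that length. CCAAT lay in 1 window (18.9% of all windows) and TATAAA in 0 (5.6%). Some of the 24 windows overlap annotated exons, wholly for Col1a2, Col4a1, Col4a2, Col6a1, Col20a1 and 1 window each of Col6a2 and Col18a1. The motif counts are therefore not for upstream sequence alone. The GC box was in 8 of 17 windows of genes higher in dMye under DMSO and in 4 of 7 windows of tested genes that were not. As the printed lines show, Col3a1, Col24a1 and Col15a1 hold none of the 3 motifs, while Col5a1 and Col4a6 hold the GC box.

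Collagen transcripts were several-fold more abundant in dMye than in FF cultures. Their CPM summed over the 44 rows was 221, 214 and 222 in the FF_DMSO libraries and 182, 202.5 and 201 in FF_PCN. In dMye_DMSO the sum ran from 727 (library 5) through a median of 905 to 994, and in dMye_PCN from 754 through 833 to 922. Every dMye library therefore exceeded every FF library, the nearest pair being 727 and 222 CPM. In these bulk samples a larger number of collagen-producing cells and more collagen RNA per cell cannot be told apart.

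Under DMSO, 18 of the 29 tested collagens were higher in dMye and 0 lower, where 13.9% of the 13409 genes tested were called higher and 21.8% were called in either direction (edgeR quasi-likelihood test, Benjamini-Hochberg adjusted p under 0.05). Under PCN, 19 were higher and 0 lower, against 16.2% of genes called higher and 27.6% in either direction. With upper-quartile scaling the share of higher among all genes called moved from 64.0% to 76.0% under DMSO and from 58.8% to 74.8% under PCN, and the counts of collagens were again 18 and 19. Over the 29 rows the median log2 fold change was 1.72 under DMSO and 1.68 under PCN, beside 0.021 and 0.003 over all genes tested. For 18 collagens every dMye library lay above every FF library in CPM, which held for 8.48% of all genes. The same 18 genes were called under both agents, and Col14a1 was called under PCN only, a split that depended on the test: with limma-voom Col14a1 was called under DMSO (1.72, adjusted p = 0.027) and not under PCN (adjusted p = 0.056), and without FF_DMSO 2 it was called under DMSO too (1.90, adjusted p = 0.033).

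**Figure D1:**
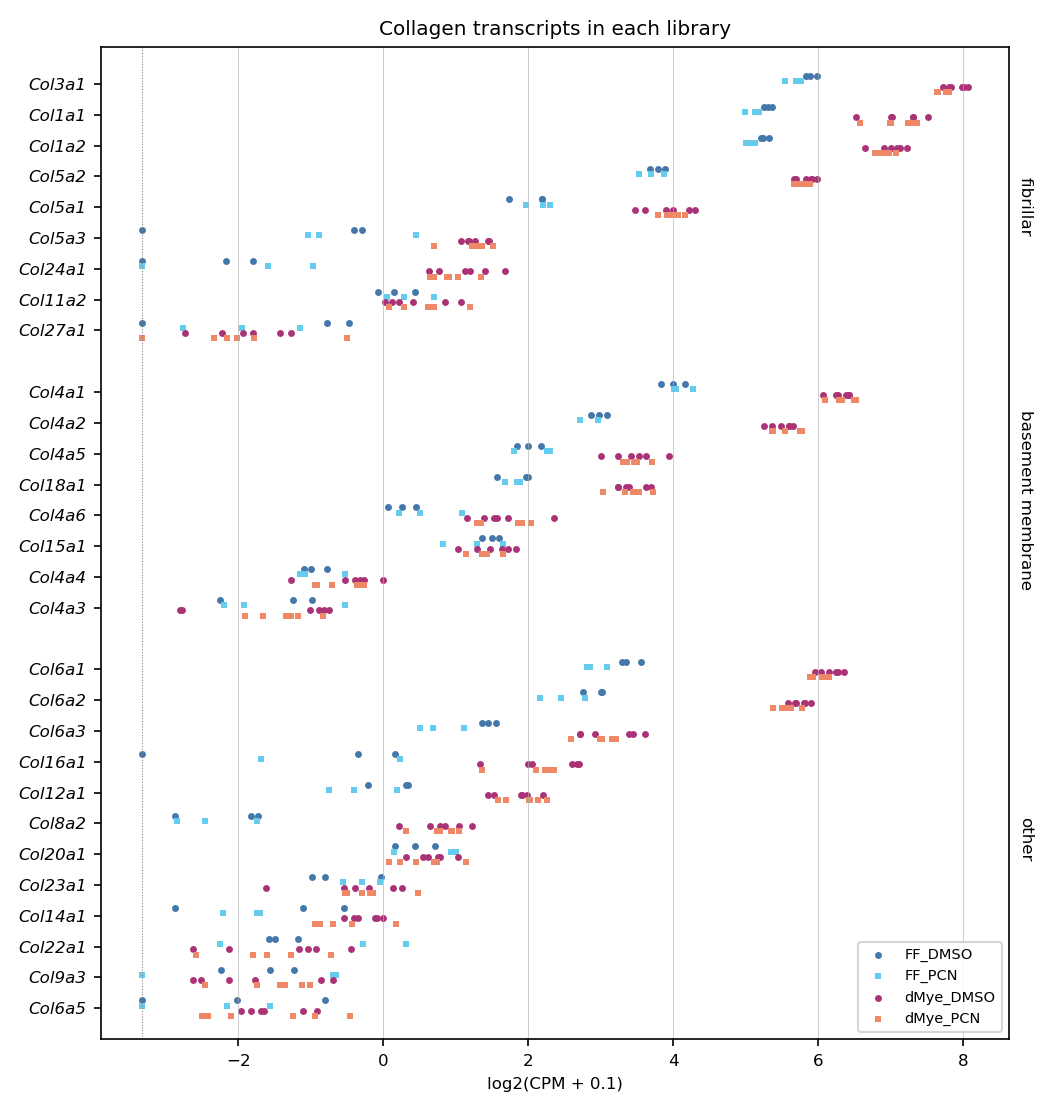
Level of each of the 29 tested collagens in each of the 18 libraries, as log2(CPM + 0.1) on the horizontal axis, with rows grouped by collagen type. Points are libraries, coloured by group, and the dotted line marks 0 CPM. For Col3a1, Col4a1 and Col6a1 all dMye points lie to the right of all FF points, whereas for Col15a1 and Col11a2 the groups overlap.

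Of the 9 tested fibrillar collagens, 7 were higher in dMye under each agent. Col3a1, the chain of type III collagen (chromosome 1, 45311538 to 45349706, plus strand, GRCm38), was at 56.9, 59.0 and 63.2 CPM in FF_DMSO and at 46.3, 51.8 and 54.1 in FF_PCN. In dMye_DMSO it ran from 210.0 through a median of 240.1 to 267 CPM, and in dMye_PCN from 199.6 through 218 to 223. No dMye library came near the FF range, and the log2 fold change was 1.98 (SE 0.07, adjusted p = 4e-15) under DMSO and 2.02 (SE 0.07, adjusted p = 2.8e-15) under PCN.

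Type I collagen, the chief component of scar and bone fibres, is built from Col1a1 and Col1a2. Col1a1 (chromosome 11, 94936224 to 94953042, plus strand) was at 41.0, 37.9 and 39.5 CPM in FF_DMSO and at 92.0 (library 5) to 183 CPM in dMye_DMSO, with a median of 144. Its log2 fold change was 1.81 (SE 0.19, adjusted p = 1.8e-06) under DMSO and 1.95 under PCN. Col1a1 was also the main collagen with the widest scatter among dMye libraries, with an SD of 31.7 CPM about a mean of 141 (n = 6), while Col3a1 had an SD of 22.5 about 239. Col1a2 (chromosome 6, 4504814 to 4541544, plus strand) was at 39.9, 37.75 and 37.0 CPM in FF_DMSO and at 100.1 to 149.6 in dMye_DMSO, a log2 fold change of 1.72 (SE 0.09, adjusted p = 1.8e-12).

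Type V collagen is incorporated into type I fibrils and limits their diameter. Its chains Col5a1 and Col5a2 rose by similar amounts, with log2 fold changes under DMSO of 1.89 (SE 0.16) and 2.03 (SE 0.09). Col5a2, the more abundant of them per kilobase of exon, was at 13.7, 12.7 and 14.7 CPM in FF_DMSO and 50.9 to 63.4 in dMye_DMSO. Col5a3, a less common chain, was scarce in FF, at 0.00, 0.713 and 0.655 CPM in FF_DMSO, and ran from 2.001 to 2.65 CPM in dMye_DMSO, with a log2 fold change of 2.30 (SE 0.47) and an adjusted p of 0.0011. Since the deposited counts are estimates, the 0 in FF_DMSO 1 can be a failed estimate, which was not tested. Under PCN the call for Col5a3 (1.54, adjusted p = 0.013) ended without FF_PCN 1 (adjusted p = 0.08) or FF_PCN 3 (0.072).

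Col24a1, a fibrillar chain best known from developing bone and cornea, had the largest fold difference among the 29 tested collagens under DMSO, while Col8a2 exceeded it under PCN. It had 8 counts over the 3 FF_DMSO libraries (0.121, 0.187 and 0.00 CPM) and 338 over the 6 dMye_DMSO libraries, which ran from 1.44 to 3.10 CPM. The log2 fold change was 4.32 (SE 0.57, adjusted p = 5e-06) under DMSO and 3.00 (SE 0.51, adjusted p = 9.9e-05) under PCN. These folds rest on few FF counts, and across the alternatives the value under DMSO ran from 3.72 to 5.08.

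The 2 tested fibrillar chains that were not called belong to types XI and XXVII. Col11a2 was at 0.849 to 1.52 CPM in FF and 0.921 to 2.18 in dMye libraries (log2 fold change 0.31, SE 0.30, under DMSO). Col27a1 stayed at or below 0.624 CPM in all 18 libraries, with a log2 fold change of -1.07 (SE 0.80) that did not pass the test. Among the called fibrillar chains the fold under DMSO had a median of 3.94 and ran from 3.30 to 20.0.

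Among the 8 basement membrane collagens, 5 were higher in dMye under each agent. Col4a1 and Col4a2 encode the ubiquitous type IV chains, whose genes (chromosome 8, 11198423 to 11312826, minus strand, and 11312805 to 11449287, plus strand) face away from each other with starts 21 bases apart and annotated ends that overlap by 22 bases. Col4a1 was at 17.7, 14.2 and 15.9 CPM in FF_DMSO and at 66.8 to 85.8 in dMye_DMSO, a log2 fold change of 2.29 (SE 0.10, adjusted p = 7.1e-14). Col4a2 was at 8.37, 7.79 and 7.21 CPM in FF_DMSO and at 38.0 to 50.2 in dMye_DMSO, a log2 fold change of 2.51 (SE 0.11, adjusted p = 8.8e-14). Neither gene's FF and dMye libraries overlapped under either agent.

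The other type IV chains divided by gene pair. Col4a5 and Col4a6, a head-to-head pair on the X chromosome with starts 1309 bases apart, rose with log2 fold changes of 1.47 (SE 0.16, adjusted p = 4.8e-07) and 1.45 (SE 0.28, adjusted p = 0.00044) under DMSO. Col4a5 was at 3.91, 3.49 and 4.4 CPM in FF_DMSO and at 7.89 to 15.3 in dMye_DMSO. Col4a3 and Col4a4, the head-to-head pair on chromosome 1 that is typical of kidney and lung basement membranes (starts 72 bases apart), stayed at or below 0.894 CPM in every library and were not called, with log2 fold changes of 0.19 (SE 0.64) and 0.60 (SE 0.36). For Col4a5 and Col4a6 the X-linked position is confounded with the difference in sex.

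Types XV and XVIII are the collagen backbones of basement membrane proteoglycans, and they differed from each other in these data. Col18a1, the source of the fragment endostatin (chromosome 10, 77052178 to 77166548, minus strand), was at 2.87, 3.82 and 3.89 CPM in FF_DMSO and at 9.32 to 12.9 in dMye_DMSO, a log2 fold change of 1.57 (SE 0.15, adjusted p = 3.3e-08). Col15a1 was at 2.91, 2.71 and 2.47 CPM in FF_DMSO and ran from 1.94 through a median of 2.85 to 3.44 in dMye_DMSO. Its groups overlapped fully, and its log2 fold change was 0.02 (SE 0.19) under DMSO and 0.06 (SE 0.20) under PCN, although per kilobase of exon it was more abundant in FF_DMSO (0.425 CPM per kilobase) than Col6a3 (0.221) and Col4a6 (0.138), which rose.

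**Figure D2:**
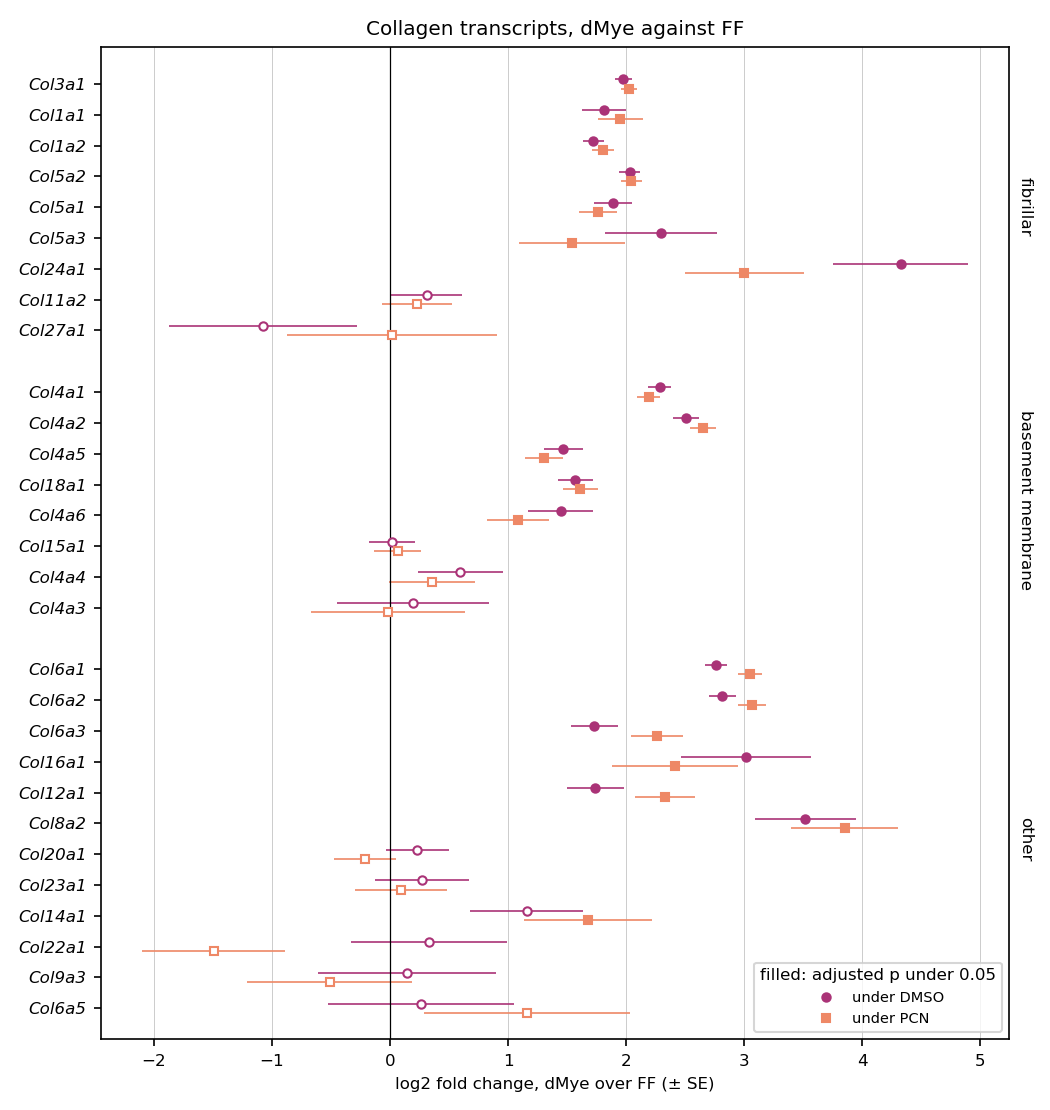
Log2 fold change of dMye over FF for each tested collagen, under DMSO (circles) and PCN (squares), with bars of 1 SE on either side. Filled symbols passed an adjusted p under 0.05; the 18 genes filled for both agents all lie right of 0, and Col24a1 (4.32 under DMSO) and Col8a2 (3.52) lie farthest right.

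Type VI collagen forms beaded filaments around cells, and 3 of its chains were higher in dMye. Col6a1 (chromosome 10, 76708792 to 76726168, minus strand) was at 11.6, 9.72 and 10.1 CPM in FF_DMSO and at 8.40, 7.14 and 6.90 in FF_PCN. It ran from 61.8 through 73.3 to 81.9 CPM in dMye_DMSO and from 59.0 through 63.3 to 70.6 in dMye_PCN. The log2 fold change was 2.76 (SE 0.10, adjusted p = 3.9e-15) under DMSO and 3.05 (SE 0.10, adjusted p = 1.2e-15) under PCN.

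Col6a2, which lies on the same strand with its start 102538 bases from that of Col6a1, moved with it. Its levels were 7.92, 7.96 and 6.68 CPM in FF_DMSO and 47.9 to 59.7 in dMye_DMSO, and its log2 fold change was 2.81 (SE 0.11, adjusted p = 3.1e-14). Col6a3, on chromosome 1, encodes the longest chain of the usual trimer. It was at 2.63, 2.46 and 2.84 CPM in FF_DMSO and 6.48 to 12.1 in dMye_DMSO, a smaller log2 fold change of 1.73 (SE 0.20, adjusted p = 1e-06). Col6a5, an alternative to the Col6a3 chain, stayed at or below 0.630 CPM and was not called (0.26, SE 0.79, under DMSO); with Col6a4 and Col6a6 it forms a cluster of similar genes on chromosome 9, among which reads may be divided uncertainly.

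Col8a2, a chain of the hexagonal network made by endothelial and corneal cells, had 11 counts over the FF_DMSO libraries (0.202, 0.0367 and 0.182 CPM) and 259 over dMye_DMSO, where it ran from 1.06 to 2.23 CPM. Its log2 fold change was 3.52 (SE 0.43, adjusted p = 1.7e-06) under DMSO and 3.85 (SE 0.45, adjusted p = 9.1e-07) under PCN. Col8a1, the partner chain, was among the rows not tested, with 82 counts in all.

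Collagens with interrupted triple helices, which coat the surface of fibrils, gave mixed results. Col12a1 was at 0.768, 1.14 and 1.16 CPM in FF_DMSO and 2.62 to 4.50 in dMye_DMSO, a log2 fold change of 1.74 (SE 0.24, adjusted p = 9.7e-06). Col16a1 was listed at essentially 0 in FF_DMSO 1 and at 0.688 and 1.02 CPM in the other FF_DMSO libraries, against 2.41 to 6.39 in dMye_DMSO (3.01, SE 0.55, adjusted p = 0.0006). Col14a1 differed by 1.16 (SE 0.48, adjusted p = 0.091) under DMSO and by 1.68 (SE 0.55, adjusted p = 0.025) under PCN, where it was at 0.117, 0.198 and 0.207 CPM in FF_PCN and 0.421 to 1.03 in dMye_PCN. That call rested on 13 counts in FF_PCN and ended with limma-voom (adjusted p = 0.056) and without FF_PCN 1 (0.11), FF_PCN 2 (0.07), FF_PCN 3 (0.059) or dMye_PCN 2 (0.059).

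Col9a3, Col20a1 and Col22a1 of the same class and the membrane-spanning Col23a1 were not called under either agent. Col20a1 was at 1.01 to 1.90 CPM in FF and 0.959 to 2.10 in dMye, and Col23a1 at 0.404 to 0.880 and 0.227 to 1.29. Col22a1, known from tissue junctions, had the lowest log2 fold change of the 29 under PCN, at -1.49 (SE 0.60, adjusted p = 0.071), from FF_PCN values of 0.721, 1.14 and 0.109 CPM. Without FF_PCN 3 that value was -1.98 with an adjusted p of 0.019, without dMye_PCN 4 it was -1.82 (0.033), and without dMye_DMSO 5 it was -1.498 (0.045).

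All 18 collagens called under DMSO were called in each of the 26 alternative fits, which included both other scalings, DESeq2, limma-voom and the omission of each library in turn. Of the 19 called under PCN, 17 were called in all 26, and the exceptions were Col5a3 and Col14a1 as given above.

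Because a long transcript collects more reads, levels of different genes were compared as CPM per kilobase of annotated exons. On that scale the order in FF_DMSO began with Col3a1 (6.08 ± 0.331, SD, n = 3) and Col1a1 (6.01 ± 0.235), which did not differ beyond their spread. They were followed by Col1a2 (3.08 ± 0.120), Col6a1 (2.39 ± 0.228), Col4a1 (2.14 ± 0.239) and Col5a2 (1.43 ± 0.105), of which Col6a1 and Col4a1 overlapped. In dMye_DMSO the order was Col3a1 (24.4 ± 2.30, n = 6), Col1a1 (21.5 ± 4.83), Col6a1 (16.5 ± 1.70), Col4a1 (10.6 ± 0.995) and Col1a2 (10.4 ± 1.40), where Col1a1 overlapped both Col3a1 and Col6a1, and Col4a1 overlapped Col1a2. The place of Col1a2 depended on the length used: the union of its exons is 12426 bases and its longest transcript 5348 bases, and with the latter it took the second place in both groups. With the longest transcript Col6a1 took the fourth place in both DMSO groups, so its move up the order under DMSO rests on that choice. Under PCN it stood higher in dMye with either length, at rank 5 in FF_PCN and 3 in dMye_PCN with the union of exons. With the longest transcript these ranks were 6 and 4.

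The make-up of the collagen pool differed between genotypes. As a share of summed CPM per kilobase, fibrillar collagens held 62.7 to 65.95% in the 6 FF libraries and 55.9 to 59.2% in the 12 dMye libraries. The class outside fibrils and basement membranes, led by Col6a1 and Col6a2, held 13.2 to 16.9% in FF and 20.6 to 24.6% in dMye. Basement membrane collagens overlapped between genotypes, at 18.2 to 22.35% and 18.5 to 22.3%, and their share was higher with PCN within each. It was 18.2 to 19.5% in FF_DMSO against 20.8 to 22.35% in FF_PCN, and 18.5 to 19.7% in dMye_DMSO against 19.8 to 22.3% in dMye_PCN, where the nearest libraries were at 19.74 and 19.78%. With the longest transcript as length these agent groups were apart too; the difference was noticed after the values were seen and was not tested. With the longest transcript the fibrillar share was 69.8 to 72.5% against 63.3 to 65.96% and the last class 11.1 to 14.3% against 18.3 to 21.5%, so neither pair of genotype ranges overlapped under either length.

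Ratios between single chains were compared in the same way. The per-length level of Col6a1 over that of Col1a1 was 0.296 to 0.424 in FF and 0.632 to 1.007 in dMye libraries, without overlap. Col6a1 over Col6a3 was 9.67 to 14.25 in FF and 17.4 to 31.8 in dMye, again apart, while Col6a1 over Col6a2 overlapped (2.01 to 3.65 and 2.33 to 2.79). Col18a1 over Col4a1 was higher in FF (0.172 to 0.286) than in dMye (0.125 to 0.164). Col1a1 over Col1a2 overlapped, with a mean of 1.95 ± 0.0741 in FF (SD, n = 6) and 2.10 ± 0.237 in dMye (n = 12) on the union of exons; with the longest transcripts the means were 0.929 and 1.00, so the absolute value of this ratio depends on the annotation used and is not read as chain stoichiometry.

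With PCN, the type VI chains Col6a1 and Col6a2 were lower in FF cultures. Of the 29 tested collagens 0 were called higher and 2 lower, where 13.8% of all genes tested were called in either direction and 6.98% were called lower, so the share of collagens called lower was near that of all genes. Col6a1 fell from 10.5 ± 0.999 to 7.48 ± 0.805 CPM (mean ± SD, n = 3), and Col6a2 from 7.52 to 5.50 CPM. All 3 FF_PCN libraries lay below all 3 FF_DMSO libraries for Col6a1 but not for Col6a2, where FF_PCN 2 (6.75 CPM) exceeded FF_DMSO 3 (6.68). The log2 fold changes were -0.46 (SE 0.11, adjusted p = 0.0078) and -0.43 (SE 0.14, adjusted p = 0.041).

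Both calls depended on the tool and on single libraries. With limma-voom the adjusted p was 0.066 for Col6a1 and 0.13 for Col6a2. For Col6a1 it was 0.061 without FF_DMSO 1 and 0.05 without FF_PCN 3, and for Col6a2 it was 0.13, 0.13, 0.21 and 0.1 without FF_DMSO 1, FF_DMSO 2, FF_PCN 1 and FF_PCN 3. It was 0.082 for Col6a2 with only the FF groups in the fit, and 0.05 without dMye_PCN 3.

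Col6a3 did not pass but had the same sign, at -0.67 (SE 0.26, adjusted p = 0.092), and its FF_PCN libraries (2.06, 1.51 and 1.32 CPM) all lay below its FF_DMSO libraries. Col3a1 had a log2 fold change of -0.21 (SE 0.08, adjusted p = 0.067), with no overlap between the FF groups. It passed with upper-quartile scaling (-0.25, adjusted p = 0.03), with only the FF groups in the fit (-0.23, 0.031) and without dMye_DMSO 5 (-0.22, 0.031). Col1a1 and Col1a2 had values of -0.18 (SE 0.21) and -0.18 (SE 0.10), and Col4a1 and Col4a2 had 0.13 (SE 0.11) and -0.07 (SE 0.13). With upper-quartile scaling the share of higher among all genes called for PCN in FF moved from 49.4% to 38.2%, and in dMye from 45.2% to 31.2%.

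In dMye cultures PCN called 0 of the 29 collagens, where 2.08% of all genes tested were called. The count was also 0 with DESeq2 and limma-voom. By edgeR, 3 collagens had an unadjusted p under 0.05, beside 2028 of the 13409 genes tested. The 3 were Col3a1 (-0.16, SE 0.05, adjusted p = 0.1), Col6a1 (-0.17, SE 0.06, adjusted p = 0.18) and Col6a2 (-0.18, SE 0.07, adjusted p = 0.25). Without dMye_DMSO 5, Col3a1 passed at -0.19 (adjusted p = 0.047).

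The difference between the PCN effects in dMye and FF was called for 0 of 29 collagens by edgeR, DESeq2 and limma-voom, against 1.42% of all genes by edgeR. The collagen with an unadjusted p under 0.05 by edgeR was Col6a1, with a difference of 0.29 (SE 0.13, adjusted p = 0.35). Of the 13409 genes tested, 1724 had such an unadjusted p. The PCN effect on type VI chains in FF was therefore not shown to differ from that in dMye.

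**Figure D3:**
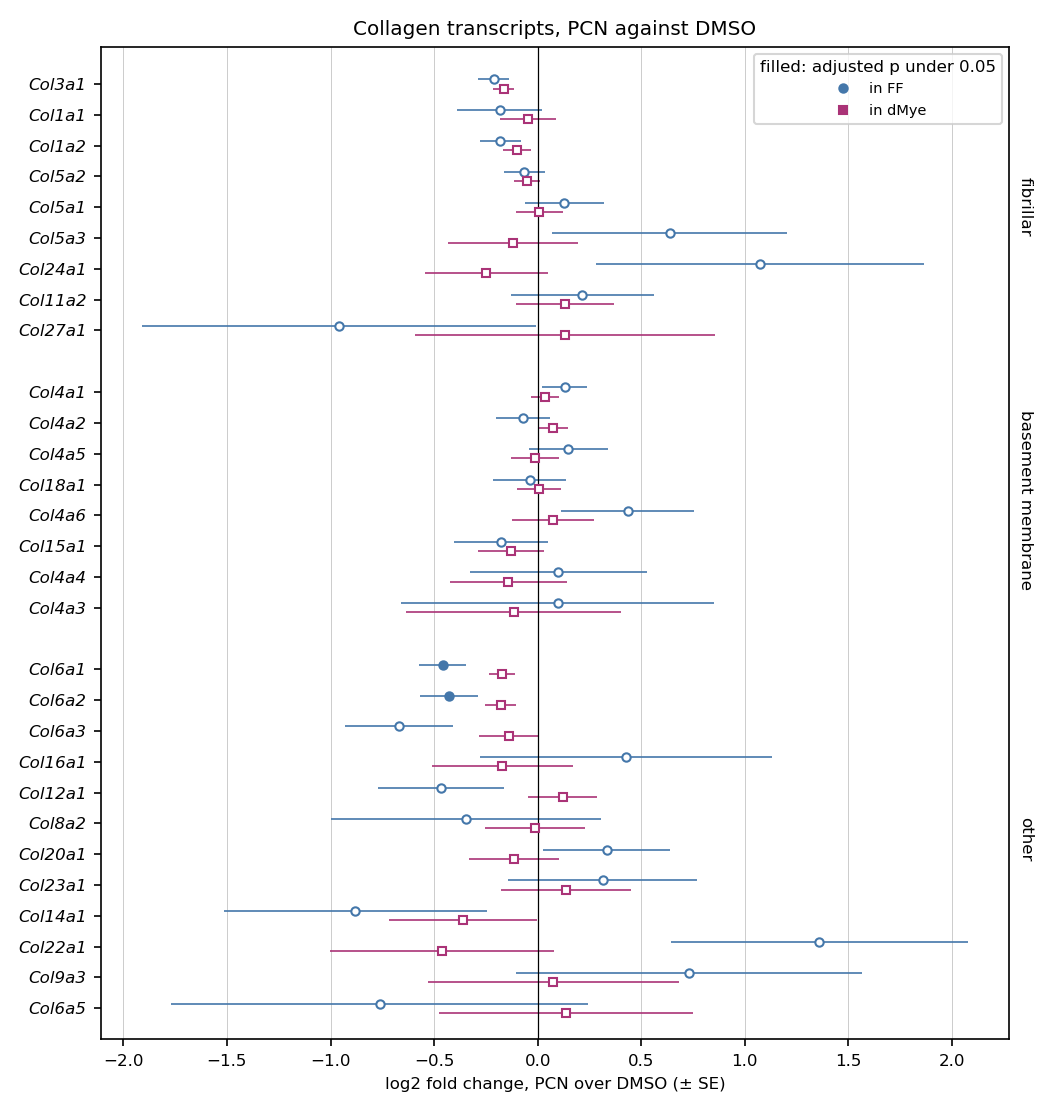
Log2 fold change of PCN over DMSO for each tested collagen in FF (circles) and dMye (squares), with bars of 1 SE on either side and filled symbols for an adjusted p under 0.05. The filled symbols are Col6a1 (-0.46) and Col6a2 (-0.43) in FF; most other bars of the abundant chains reach or lie near 0, and those of scarce chains such as Col24a1 and Col22a1 are wide.

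Of the genes that make and handle collagen, part of each of 4 lists was higher in dMye, where 13.9% of all genes tested were called higher under DMSO and 16.2% under PCN. Of 16 tested genes for chain modification and folding, 10 rose under DMSO and 10 under PCN, with 0 falling and a median log2 fold change of 0.28 and 0.27. Serpinh1, the collagen chaperone HSP47, was at 27.1, 27.9 and 28.4 CPM in FF_DMSO and at 100.6 to 127 in dMye_DMSO, a log2 fold change of 1.97 (SE 0.09, adjusted p = 9.1e-14). Plod2 (2.10, SE 0.12), the lysyl hydroxylase of cross-linking sites, P3h4 (2.05, SE 0.17), a scaffold of lysyl hydroxylation, and Fkbp10 (1.84, SE 0.17), a folding enzyme, rose by similar amounts. Colgalt1, which adds galactose to collagen and was at 318 ± 6.45 CPM in FF_DMSO, did not pass the test under DMSO (-0.11, SE 0.04, adjusted p = 0.061), nor did Plod3 (0.05, SE 0.05).

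Among 11 tested genes of export and trimming, 7 rose under each agent and 0 fell, against the same 13.9% and 16.2% of all genes called higher. They included Bmp1 (1.18, SE 0.14, under DMSO) and Tll1 (2.06, SE 0.31), proteases that remove the carboxyl propeptide, their enhancer Pcolce (1.79, SE 0.25), and Creb3l1 (0.65, SE 0.11), a transcription factor that promotes collagen secretion. Of 11 genes for cross-linking and fibril assembly, 8 rose under DMSO and 9 under PCN, with a median log2 fold change of 1.72 under each, beside those shares of all genes. Sparc, a collagen-binding matrix protein, was at 30.2, 34.2 and 36.9 CPM in FF_DMSO and at 133 to 147.5 in dMye_DMSO (2.001, SE 0.07, adjusted p = 3.6e-15). The cross-linking oxidase Loxl2 (1.90, SE 0.12) and the proteoglycans Dcn (1.93, SE 0.08) and Bgn (1.46, SE 0.10) also rose. Like Col4a5 and Col4a6, Bgn is X-linked, and its position is confounded with the difference in sex.

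Receptors and uptake genes were divided. Of 11 tested, 5 rose under DMSO and 6 under PCN, where 13.9% and 16.2% of all genes were called higher, and the median was 0.39 and 0.42. The receptor kinases Ddr1 (1.92, SE 0.14) and Ddr2 (1.24, SE 0.14) and the endocytic receptor Mrc2 (1.98, SE 0.25) rose, and Mrc1, the mannose receptor of macrophages, rose by 0.43 (SE 0.05, adjusted p = 2.2e-06) from 99.3 ± 4.59 to 136 ± 6.59 CPM. Itgb1, the shared integrin subunit, was at 0.04 (SE 0.05).

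**Figure D4:**
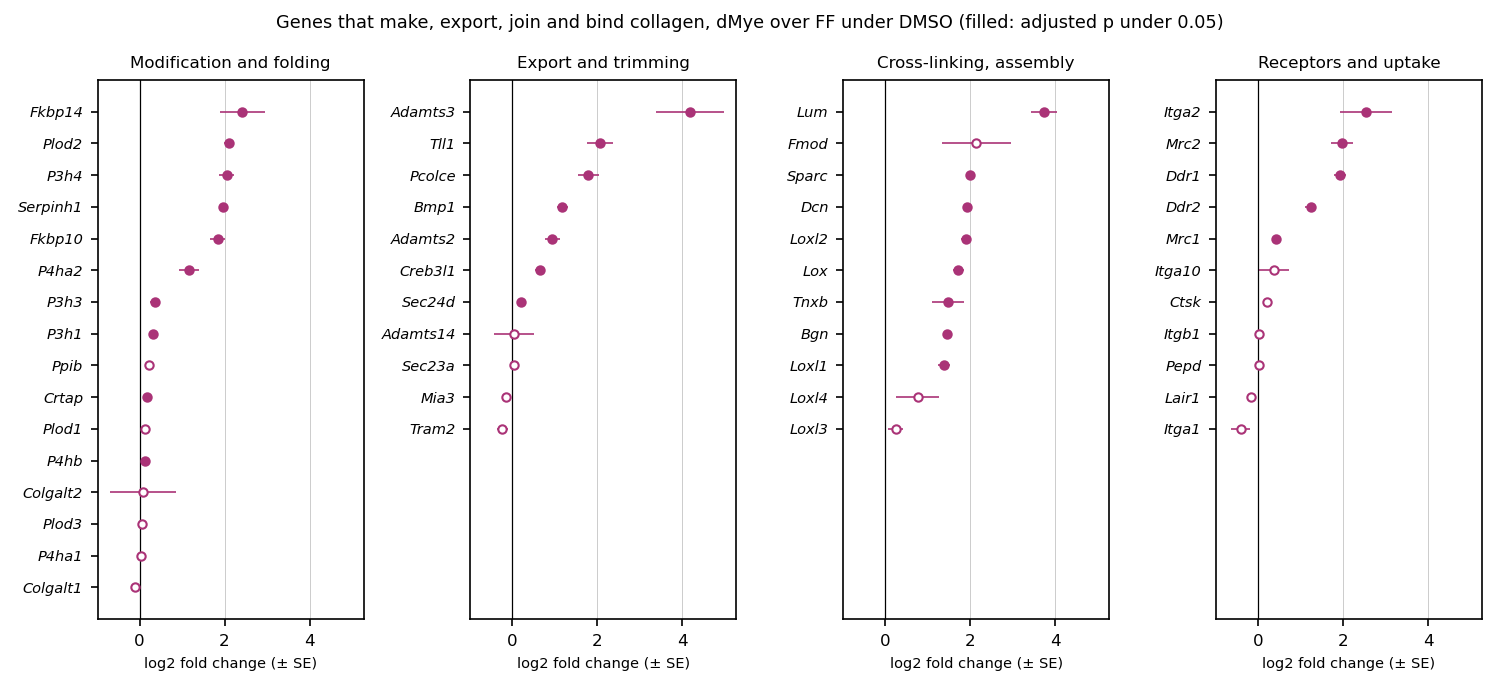
Log2 fold change of dMye over FF under DMSO, with bars of 1 SE on either side, for the tested genes of 4 lists: chain modification and folding (16), export and trimming (11), cross-linking and fibril assembly (11), and receptors and uptake (11). Filled symbols passed an adjusted p under 0.05, and they number 10, 7, 8 and 5.

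PCN in FF changed a few of these genes, where 6.98% of all genes were called lower and 13.8% in either direction. Colgalt1 (-0.24, SE 0.05, adjusted p = 0.0016), Crtap (-0.27, SE 0.07, adjusted p = 0.012), a partner of prolyl 3-hydroxylase, Plod1 (-0.18, SE 0.06, adjusted p = 0.044) and Plod3 (-0.17, SE 0.06, adjusted p = 0.048) fell, and 0 of the 16 modification genes rose. Leaving out single libraries brought this count down to 1 at the lowest, without FF_DMSO 2. Creb3l1 fell from 11.4 ± 0.251 to 7.54 ± 0.672 CPM (-0.57, SE 0.13, adjusted p = 0.0037), Bmp1 fell (-0.56, SE 0.17, adjusted p = 0.026), and Tll1 rose from 0.303 to 0.697 CPM (1.24, SE 0.35, adjusted p = 0.02). With limma-voom, with only the FF groups in the fit, and without FF_DMSO 1 or FF_DMSO 3, 1 export gene was called in place of 3. The oxidase Loxl3 fell (-0.72, SE 0.21, adjusted p = 0.025), a call that ended without FF_DMSO 1 or FF_PCN 3 and with only the FF groups in the fit.

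Lair1, an inhibitory collagen receptor of leukocytes, fell with PCN in FF from 17.8, 19.9 and 23.7 CPM to 10.4, 11.3 and 13.0 (log2 fold change -0.80, SE 0.12, adjusted p = 7.6e-05). In dMye it was at 15.6 to 21.2 CPM with DMSO and 14.5 to 17.3 with PCN (-0.21, SE 0.08, adjusted p = 0.21). The difference between these effects was 0.58 (SE 0.15, adjusted p = 0.046), the only call for that contrast among the 49 tested genes of the 4 lists, where 1.42% of all genes were called, and it ended with limma-voom and in 11 of the 18 fits that left out a library.

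Some markers of other cells moved with the collagens. For dMye against FF, 13.9% of all genes were called higher and 7.85% lower under DMSO, and 16.2% and 11.4% under PCN, and the counts of markers that follow stand beside these shares. All 12 mesothelial markers were higher in dMye under both agents, with a median log2 fold change of 2.37 and 2.55, and their summed CPM was 24.6 to 36.9 in FF and 148 to 189 in dMye libraries. Mesothelial cells line the peritoneal cavity. Their surface protein Msln ran from 3.37 to 5.06 CPM in FF and from 22.6 to 29.0 in dMye, Upk3b from 0.445 to 1.02 and from 7.53 to 12.6, and the transcription factor Wt1 from 1.90 to 3.94 and from 11.6 to 16.9. The part of these cells in the collagen difference was not tested.

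Fibroblast markers were split. Of 11 tested, 6 were higher and 1 lower under DMSO, and 7 higher and 0 lower under PCN, with a summed CPM of 43.3 to 53.9 in FF and 142 to 168 in dMye. Dcn (21.6 to 27.6 CPM in FF and 91.1 to 113 in dMye), also among the assembly genes above, Fbn1 of microfibrils (10.8 to 13.95 and 16.1 to 26.6) and Pdgfra (5.52 to 7.06 and 15.3 to 22.9) made up most of it. Lum, likewise in both lists, was at 0.0727 to 0.566 CPM in FF and 3.89 to 6.015 in dMye. Pdgfrb (0.768 to 1.76 and 0.728 to 2.35) and Thy1 (0.777 to 2.08 and 0.519 to 1.31), the 1 called lower under DMSO, overlapped between genotypes, and Dpt and Tcf21 were at most 0.841 CPM anywhere. The part of fibroblasts in the collagen difference was likewise not tested.

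Smooth muscle and pericyte markers summed to 10.6 to 11.9 CPM in FF and 20.6 to 27.5 in dMye, 3 of 5 tested being higher under each agent. Of 8 endothelial markers 4 were tested, and 2 were higher and 0 lower under each agent. These were Esam, without overlap (0.4275 to 1.152 CPM in FF and 1.47 to 2.637 in dMye), and Kdr (log2 fold change 0.33 under DMSO and 0.35 under PCN), while Vwf overlapped (139 to 162 CPM in FF and 105 to 166 in dMye), as did Cdh5, at or below 0.634 CPM. Cldn5 had 0 counts in all 18 libraries, Emcn 2 and Tie1 20, and the endothelial sum was 166.6 to 194.5 CPM in FF and 138 to 206 in dMye. Macrophage markers summed to 10020 to 10740 CPM in FF_DMSO and 6631 to 8287 in dMye_DMSO, and to 7103 to 7595 in FF_PCN and 6114 to 6659 in dMye_PCN. Lyz2 carried most of that difference in the sum. Its means were 7141 CPM in FF_DMSO and 4060 in dMye_DMSO, and 4392 in FF_PCN and 3273 in dMye_PCN. The single markers were divided, with 2 of 8 higher and 2 lower in dMye under DMSO and 6 higher and 1 lower under PCN. B cell markers summed to 7.27 to 21.4 CPM in FF and 5.06 to 8.53 in dMye, with 5 of 6 lower in dMye under DMSO and 2 under PCN. The part of these cells in the collagen difference was not tested.

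**Figure D5:**
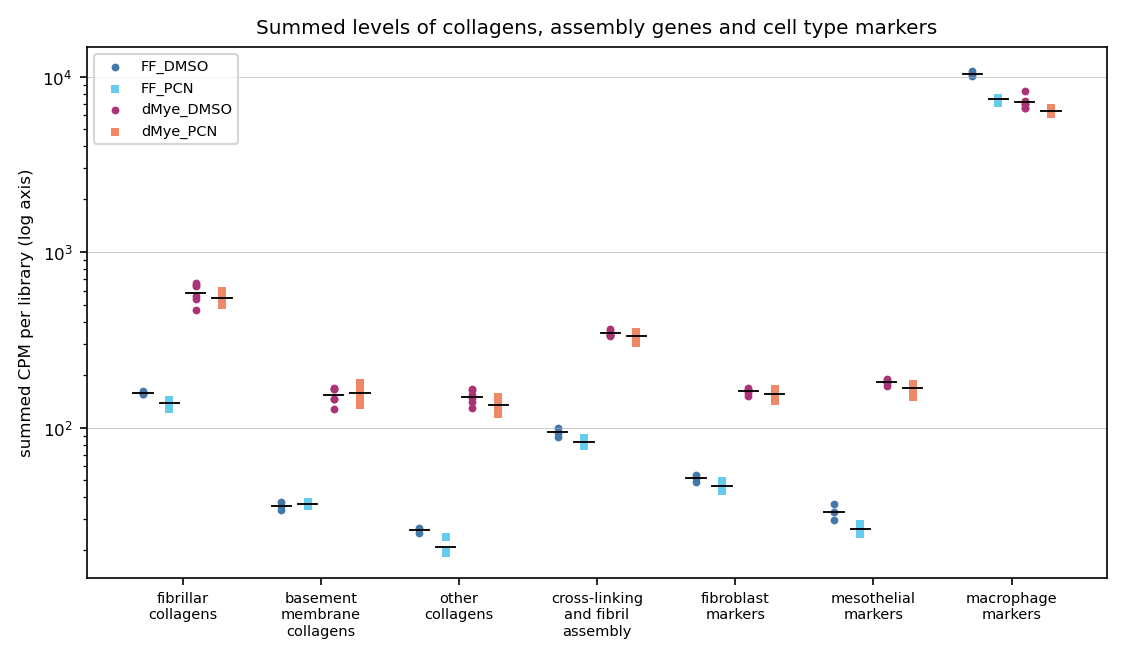
Summed CPM per library, on a log axis, for the 3 collagen types, the cross-linking and assembly genes and the fibroblast, mesothelial and macrophage markers. Points are libraries, coloured by group, and black lines are group means. Dcn and Lum count in both the assembly and the fibroblast sums. Collagens, assembly genes, mesothelial markers and fibroblast markers are all higher in every dMye library than in any FF library. The macrophage markers are lower in every dMye library than in any FF library given the same agent. Between genotypes they overlap for FF_PCN and dMye_DMSO, which differ in agent.

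The same sums were set side by side for PCN in FF. Summed mesothelial markers were 32.9, 36.9 and 29.7 CPM in FF_DMSO and 24.6, 28.1 and 26.7 in FF_PCN, and 1 of the 12 was called lower. Summed macrophage markers were 10740, 10020 and 10310 CPM in FF_DMSO and 7543, 7103 and 7595 in FF_PCN, with 6 of 8 called lower, against 6.98% of all genes. Lyz2, the macrophage lysozyme, carried most of that fall, from 7141 ± 324 to 4392 ± 317 CPM (mean ± SD, n = 3), while Cd68 was not called, at 2545 ± 45.85 and 2475 ± 56.03 CPM. The summed fibrillar collagens were 156, 154 and 161 CPM in FF_DMSO and 127, 142 and 144 in FF_PCN, the basement membrane collagens 37.7, 33.7 and 35.7 and 35.5, 37.1 and 37.5, and the other collagens 26.9, 26.4 and 25.0 and 19.5, 23.7 and 19.2. The basement membrane collagens thus overlapped between agents, while the other 2 sums did not, and the part of other cell types in this was not tested.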

How the data were processed

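The deposited table gave expected counts per gene, estimates by the authors that need not be whole (51.2% of values were not). The genome build was mm10 (per the submitters' processing notes). Which aligner, quantifier or annotation was used, and whether strand was, is not given in the sources used here, so antisense or overlapping genes and similar copies may share counts. Counts were rounded. Genes kept by filterByExpr (13409) entered 1 robust quasi-likelihood model in edgeR 4.0.16 (R 4.3.3; TMM factors 0.967 to 1.04) of 4 groups and 18 libraries with 5 contrasts and no covariates. Adjusted p-values are Benjamini-Hochberg over all genes tested, called under 0.05, and SE is the size of the log2 fold change over the square root of F. The fit was tested on simulated data with 200 changed genes. It recovered 60% of 1.5-fold changes for PCN in FF and 67% in dMye, with 0.8% and 1.5% of calls false. Of 2-fold changes, 71% to 79.5% were recovered over the contrasts tried, with 4.7% to 7.2% of calls false. CPM used unscaled library totals; lengths and coordinates came from GENCODE M21 on GRCm38, matched by symbol for all 44 collagens, with the union of exons as length. Motifs were searched in RefSeq promoter windows (GRCm38.p6). Replicate numbers only name libraries. The floor given for rows of 0 counts covers counting error only, while SE also holds library-to-library spread. Every collagen row was named, and of each pathway list up to 4 called genes by smallest p per kind of contrast. The members and lists were chosen with earlier results of these data known. Col21a1 and Mia2 are not analysed here, and a further allele common to all groups is not reported here. The alternatives tried were upper-quartile and RLE scaling, no filter, at least 1 CPM in 6 libraries, DESeq2 1.42.0, limma-voom (limma 3.58.1), only the groups compared, each library left out and, chosen after seeing the data, dMye_DMSO 5 and 6 left out together.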

Additional observations from a re-analysis of the deposited data

Results flagged for a closer look

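A value far from the others of its group of 6 libraries was found in 9 of 130 sets checked with Dixon's test, and chance gives about 1 in 20. Among collagens, Col16a1 was at 2.46 CPM in dMye_PCN 4 against 4.22 to 5.001 in the other dMye_PCN libraries. Col27a1 was at 0.604 CPM in dMye_PCN 5 against 0.00 to 0.189, Col14a1 at 1.03 in dMye_PCN 2 against 0.421 to 0.641, and Col23a1 at 1.29 in dMye_PCN 6 against 0.596 to 0.803. Among pathway genes, Fkbp10 was at 8.27 CPM in dMye_PCN 4 (others 12.3 to 13.6), Pcolce at 4.89 in dMye_DMSO 5 (others 6.98 to 8.01), Tll1 at 2.13 in dMye_PCN 1 (others 1.23 to 1.44) and Loxl3 at 5.88 in dMye_DMSO 5 (others 4.06 to 4.41). The summed macrophage markers were 8287 CPM in dMye_DMSO 5 against 6631 to 7237 in the rest of that group, and the same library had the lowest collagen sum of its group, 727 CPM. Its mesothelial sum (181.9 CPM, group 171.4 to 189.1) and fibroblast sum (158.0, group 150.7 to 167.7) were not at the ends of the group. Its smooth muscle and pericyte sum (27.5) and B cell sum (7.47) were the highest there, and its endothelial sum (139) the lowest. Lair1 was called for a PCN effect that differed between dMye and FF, by 0.58 on the log2 scale (edgeR quasi-likelihood, adjusted p = 0.046). It was 1 of 49 tested genes of the 4 lists, where 1.42% of all genes were called for that contrast. The call ended with limma-voom and in 11 of the 18 fits that left out a library.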

How the results depend on the processing

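No paired analysis was possible because the labels give no replicate numbers shared between groups. Of all values of single collagens under the alternatives, none changed sign with a call; the fold changes of dMye against FF under DMSO kept their side of the threshold in 740 of 742 values and those under PCN in 730 of 741. The number of collagens called for PCN in FF was 2 and became 0 with limma-voom. Leaving out 1 library gave 0 to 3 for PCN in FF, 0 to 1 for PCN in dMye (1 without dMye_DMSO 5), 0 for the difference of the PCN effects, 18 to 19 for dMye against FF under DMSO and 17 to 20 under PCN. Leaving out dMye_DMSO 5 and 6 together gave 18 and 20 for the genotype comparisons. With no filter, Col26a1 (5.77, adjusted p = 0.011) and Col11a1 (-4.17, adjusted p = 0.04) were also called under PCN by edgeR. These calls rested on few counts: Col11a1 had 6 over FF_PCN and 0 over dMye_PCN, and Col26a1 had 0 and 42. Upper-quartile scaling moved the median log2 fold change of all genes by less than 0.1. Genes near 1 CPM rest on 22 to 30.2 counts per library, so that small changes of scarce chains were not detectable at this depth.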
